A study of Homo sapiens with 4 samples.

Results

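The zinc finger (ZNF) genes of human chromosome 19 are described here by the acetylated enhancer regions that Kasumi-1 leukaemia cells held at them, with and without a guide against SETD8. A region was taken where it lay on chromosome 19 and the deposited annotation named, with a distance to its transcription start site (TSS), a gene whose symbol begins with ZNF. The rule found 61 of 45672 regions over 4 tables, a pair with many regions (dense) and a pair with few (sparse), each with an sgSETD8 and an sgNT table: 16 in dense sgSETD8, 9 in dense sgNT, 27 in sparse sgSETD8 and 9 in sparse sgNT, and they name 38 genes. It uses a name and a chromosome and no signal, but a gene can enter it only by having a listed region.

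The Kasumi-1 line comes from a human acute myeloid leukaemia with the t(8;21) translocation, which joins RUNX1 to RUNX1T1. Cells with a guide against SETD8 (sgSETD8, 2 samples, genotype SETD8 knockout) were set against cells with a non-targeting guide (sgNT, 2 samples, genotype WT). The labels give CRISPR/Cas9 and the same culture medium for both groups, and do not say whether the knockout cells were 1 clone or a pool, or whether the samples came from separate cultures. CUT&Tag, in which an antibody guides a transposase to marked chromatin, was run for H3K27ac, the acetylated form of lysine 27 of histone H3 that sits on active regulatory DNA. The sample labels name H3K27ac throughout, while the series design text names another mark.

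Proteins of this family bind DNA through tandem C2H2 zinc fingers, each finger reading a few bases. Many of those encoded on chromosome 19 also carry a KRAB box, which recruits the corepressor TRIM28; TRIM28 in turn brings the methyltransferase SETDB1 and HP1 proteins, and the best known targets are transposable elements. The genes arose by repeated tandem duplication, and many are confined to primates. SETD8 (gene symbol KMT5A) is the enzyme that monomethylates histone H4 at lysine 20.

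The sequences shown first are those of the 2 ZNF gene starts on chromosome 19 whose start window a listed region overlapped. RefSeq (GRCh38.p14) gives 307 start windows for the ZNF genes of chromosome 19, each from 250 bases before to 50 bases after a start. A region overlapped 1 of them in dense sgSETD8, 1 in dense sgNT, 0 in sparse sgSETD8 and 2 in sparse sgNT. These are 0.326%, 0.326%, 0% and 0.651% of the ZNF windows, where all 35116 windows of the genome gave 9.34%, 8.00%, 0.182% and 0.350% in the same order of tables, and windows of other chromosome 19 genes 4.91%, 5.09%, 0.124% and 0.559%. In the dense tables the ZNF share lay below both, and in the sparse tables all 3 shares were under 1%. The tables list enhancer regions, few of which were annotated to a promoter (214 of 18061 in dense sgSETD8 and 161 of 15149 in dense sgNT). An unlisted start is thus not read as one without the mark. The gene start of ZNF66 was the one met in both dense tables and in sparse sgNT, and that of ZNF439 was met in sparse sgNT. The bases before each start are printed on the plus strand, with matches to the ETS (CCGGAAG), SP (GGGCGG) and NFY (CCAAT) motifs, on either strand, in capitals. The ZNF66 stretch lies at chr19:20776054-20776303 and the ZNF439 stretch at chr19:11848476-11848725.
ZNF66: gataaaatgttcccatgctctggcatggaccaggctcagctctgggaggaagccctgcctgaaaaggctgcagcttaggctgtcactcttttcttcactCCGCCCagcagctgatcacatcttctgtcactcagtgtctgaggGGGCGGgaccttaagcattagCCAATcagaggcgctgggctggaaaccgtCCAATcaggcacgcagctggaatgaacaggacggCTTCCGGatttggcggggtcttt
ZNF439: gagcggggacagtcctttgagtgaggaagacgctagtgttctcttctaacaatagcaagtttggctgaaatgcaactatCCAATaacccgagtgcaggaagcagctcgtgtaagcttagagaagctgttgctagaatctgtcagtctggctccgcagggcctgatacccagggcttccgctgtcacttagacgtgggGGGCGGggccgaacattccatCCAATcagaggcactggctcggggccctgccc
The ZNF66 stretch held 2 CCAAT matches, 2 SP matches and 1 ETS match on the minus strand, and 8 CpG dinucleotides. The dense sgSETD8 region covered the last 115 of these bases and the dense sgNT region the last 6, while the sparse sgNT region began 2 bp past the start. The ZNF439 stretch held 2 CCAAT matches, 1 SP match and no ETS match, with 10 CpG dinucleotides, and the sparse sgNT region began 7 bp past the start.

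ZNF gene starts of chromosome 19 held the ETS match in a larger share than other starts, which was not tested. CCGGAAG was found on either strand in 124 of 307 ZNF windows (40.4%), against 209 of 1610 windows of other chromosome 19 genes (13.0%) and 3603 of 35116 windows in the genome (10.3%). CCAAT was found in 48.5%, 34.9% and 34.6% of these windows, and GGGCGG in 64.2%, 61.3% and 45.0%. Less frequent motifs were that of NRF1, TGTGGT (RUNX), AANATGGCG (YY1) and TGACGTCA (CRE), with 12.4%, 15.6%, 4.89% and 4.23% of the ZNF windows and 8.32%, 13.1%, 3.19% and 1.85% of all windows. Windows of the named ZNF genes held CCGGAAG in 11 of 38 cases (28.9%), and windows of the ZNF genes without a region in 113 of 269 (42.0%). A gene can have several windows, 31 of the 38 named genes had one, motif matches may overlap each other, and a match is a run of letters and not a bound site.

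**Figure D1:**
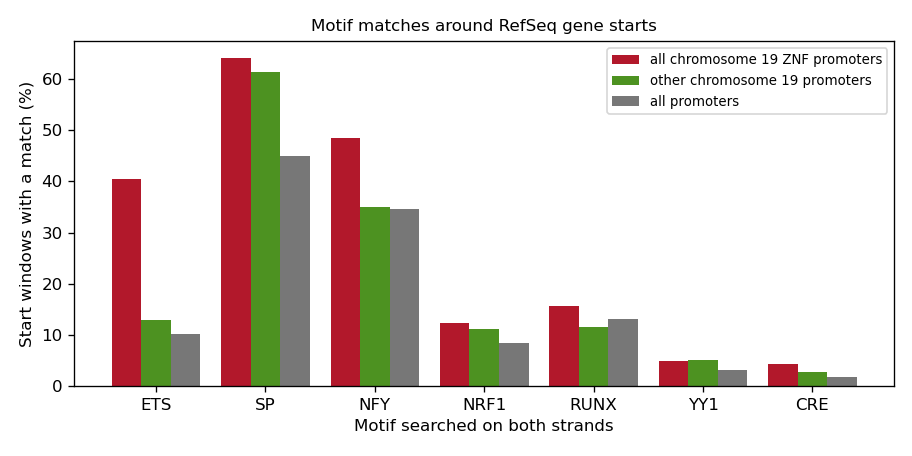
Share of RefSeq start windows (percent, y axis) with at least 1 match to each motif on either strand (x axis), for all 307 chromosome 19 ZNF windows, 1610 windows of other chromosome 19 genes and all 35116 windows. The ETS bar of the ZNF windows stands at 40.4%, against 13.0% and 10.3%, and the YY1 bars lie at 4.89%, 5.09% and 3.19%.

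Names in the region identifiers set the tables in 2 pairs, a dense pair with many and long regions (18061 in sgSETD8 and 15149 in sgNT) and a sparse pair with few and short ones (7276 and 5186). Sparse sgNT was read as sgNT because its identifiers carry no guide name at all. Depth is unknown, since no table holds counts, and no pair has replicates. Sparse sgSETD8 stood apart from the other 3: 29.7% of its regions had the shortest width of the table, 274 bp, against 10.9% in sparse sgNT, and 29.3% overlapped a dense region, against 79.0% in sparse sgNT. Most counts and shares that rest on it are therefore given beside the dense pair, and those of some alternative settings as means over the pairs. Of 10 markers of t(8;21) myeloid cells, 9 had a region in dense sgSETD8 and 8 in dense sgNT, and 6 in sparse sgSETD8 and 5 in sparse sgNT, with KIT, the stem cell factor receptor, among the best-ranked, at percentile 0.0166 in dense sgSETD8 and 0.0330 in dense sgNT of the signal ranks. POU4F1 had none in any table. Of 10 markers of other cell types, 2 (EPCAM and CD3E) had a region in dense sgSETD8 and 1 (CD3E) in dense sgNT, and KRT18 had one in sparse sgSETD8.

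Both sgSETD8 tables held more chromosome 19 ZNF regions than the sgNT table of their pair. The dense pair had 16 in sgSETD8 and 9 in sgNT, a ratio of 1.78, and the sparse pair 27 and 9, a ratio of 3.0. The mean log2 ratio was 1.21 ± 0.53 (SD, n = 2 pairs). Group means were 21.5 ± 7.78 regions for sgSETD8 and 9.0 ± 0 for sgNT (SD, n = 2 tables each). Each group mean joins a dense and a sparse table, so its SD is not a spread between like replicates. ZNF regions numbered 16 and 27 in sgSETD8 and 9 and 9 in sgNT, so the groups did not overlap in this number. How often other sets of genes separate in this way was not counted. With 2 tables a group, however, the smallest two-sided p of an exact permutation test without pairing is 0.333, and none was computed. Regions of other chromosome 19 genes numbered 325 in sgSETD8 and 298 in sgNT in the dense pair, and 197 and 195 in the sparse pair. Regions at ZNF genes on other chromosomes numbered 145 and 122 in the dense pair, and 68 and 42 in the sparse pair. All regions of the tables stood at log2 ratios of 0.25 (dense) and 0.49 (sparse), so the log2 ZNF ratio relative to all regions was 0.58 for the dense tables and 1.10 for the sparse tables. No test of the difference between these sets was made. In a bulk profile, more cells with a mark and more of the mark per cell cannot be told apart.

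**Figure D2:**
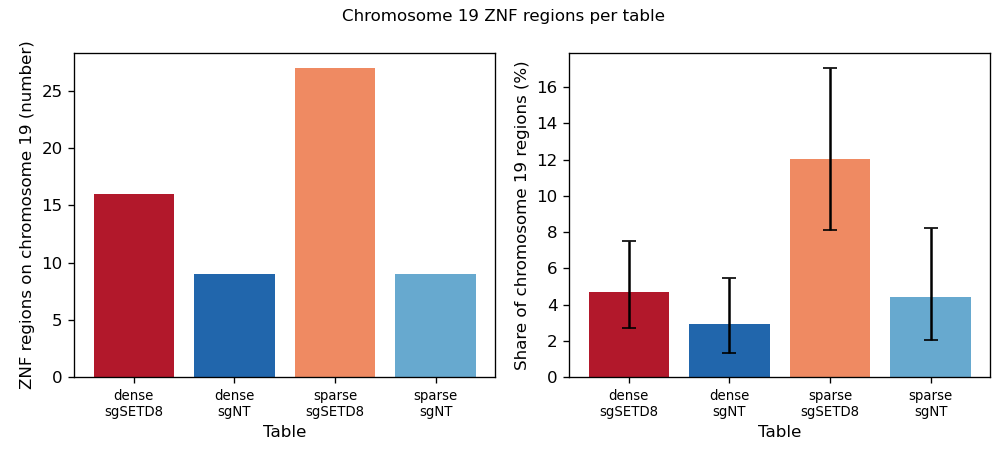
Left, number of chromosome 19 ZNF regions in each table (y axis); right, the same as a share of all chromosome 19 regions of the table (percent), with exact Clopper-Pearson 95% intervals as bars. The sgSETD8 tables stand at 16 and 27 regions and both sgNT tables at 9, and the intervals overlap within each pair.

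As a share of the chromosome 19 regions of a table, the ZNF regions made up 4.69% in dense sgSETD8 (interval 2.71 to 7.51) and 2.93% in dense sgNT (1.35 to 5.49). In the sparse pair they made up 12.1% in sgSETD8 (8.10 to 17.1) and 4.41% in sgNT (2.04 to 8.21). The shares differed by 1.76 percentage points between the dense tables and by 7.64 between the sparse tables, a mean of 4.70 ± 4.16 (SD, n = 2 pairs). These are exact Clopper-Pearson intervals at 95%; they cover counting error alone, as if regions were independent. Among the best-ranked 5000 regions the dense pair had 1 ZNF region in each group, both at ZNF787, and the sparse pair 17 in sgSETD8 and 9 in sgNT. Once regions under 500 bp were dropped, the dense pair had 11 in sgSETD8 and 6 in sgNT, and the sparse pair 7 and 7. With only regions that overlap a region of the other pair, a setting chosen after seeing the data, the dense pair had 6 in sgSETD8 and 5 in sgNT and the sparse pair 3 and 6, and the mean log2 ratio turned to -0.37.

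**Figure D3:**
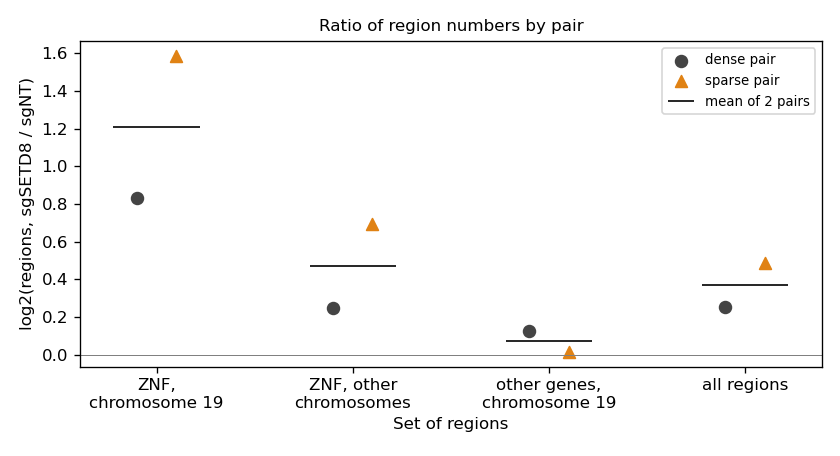
log2 ratio of the number of regions, sgSETD8 over sgNT (y axis), for 4 sets of regions (x axis); circles are the dense pair, triangles the sparse pair and lines the mean of the 2 pairs. The chromosome 19 ZNF set stands at 0.83 and 1.58, the other chromosome 19 genes at 0.13 and 0.01, and all regions at 0.25 and 0.49.

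Merging the ZNF regions that overlap each other gave 44 loci. Of these, 2 (4.55%) were covered in all 4 tables, where all loci of the series gave 4.47%, 4 in 3 tables, 3 in 2 tables and 35 (79.5%) in 1 table, where all loci gave 56.9%. By group, 31 loci (70.5%) were covered in sgSETD8 tables and in no sgNT table, where all loci of the series gave 41.4%, and 4 (9.09%) in sgNT tables only, where all loci gave 16.5%. Both groups covered 9 loci (20.5%), against 42.1% of all loci. Sparse sgSETD8 alone covered 23 of the 44 (52.3%), against 19.2% of all loci, and dense sgSETD8 alone 8 (18.2%), against 21.7%. Of the last 2 shares, that of sparse sgSETD8, the table that stood apart, was above that of all loci, and that of dense sgSETD8 was not. The 31 loci without sgNT are these 23 and 8.

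**Figure D4:**
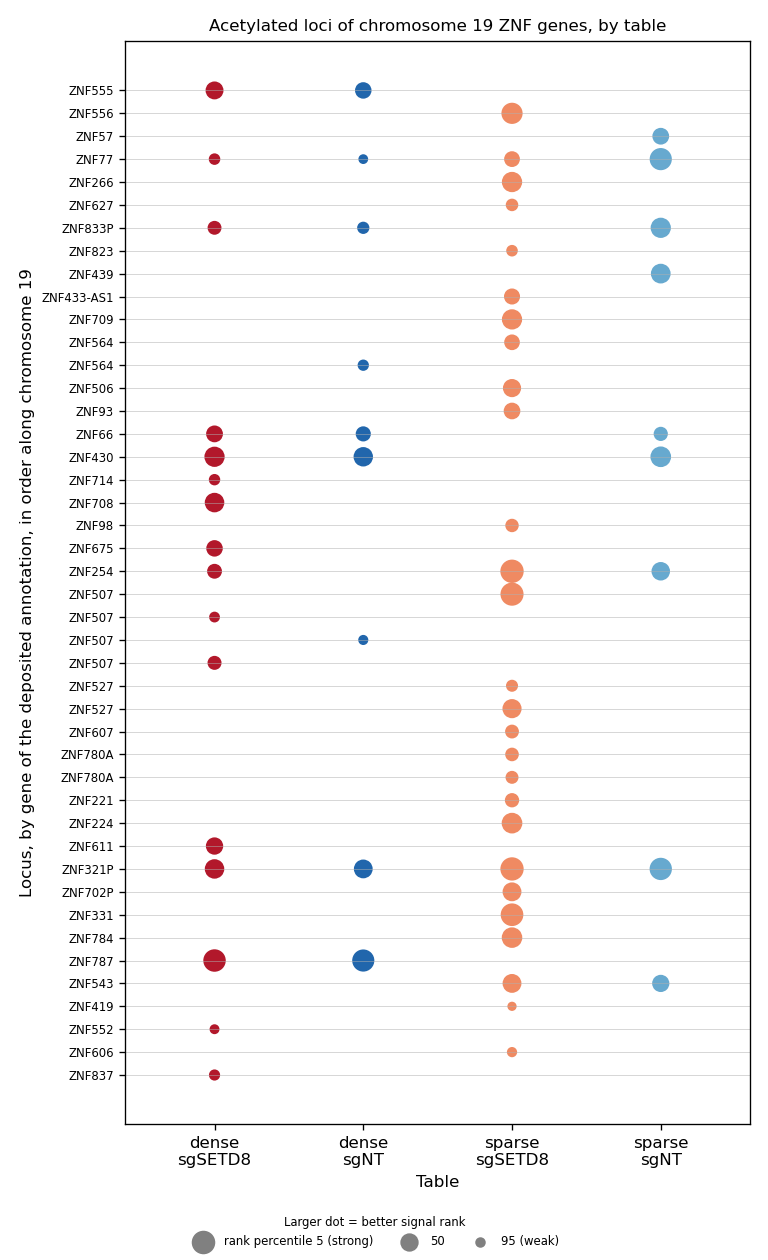
The 44 loci (y axis, labelled by gene, in order along chromosome 19) in the 4 tables (x axis); a dot marks a region, and a larger dot a better rank of the authors' signal within its table. ZNF77 and ZNF321P have 4 dots, and 23 rows have a dot in sparse sgSETD8 only.

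The 9 loci that recurred in more than 1 table were each covered in both groups; coordinates are on hg38. ZNF787, a C2H2 protein with little known function, held the best-ranked ZNF region of the dense pair, 6 joined peaks in an intron. It lay at chr19:56110594-56120855 in sgSETD8, with a signal density of 0.742 per bp and rank 2760, and at chr19:56110584-56120835 in sgNT, with 0.825 per bp and rank 2755. The region measured 10262 bp in sgSETD8 and 10252 bp in sgNT, and neither sparse table held the locus. The signal is the authors' own value, and what its density is scaled to is not stated.

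ZNF430, a gene of the primate-rich cluster next to the centromere, had an intronic region in 3 tables. It measured 3705 bp in dense sgSETD8 (chr19:21028203-21031907, density 0.658, rank 6319) and 3352 bp in dense sgNT (chr19:21028184-21031535, density 0.675, rank 6314). Sparse sgNT held the first part of it (chr19:21028073-21029007, density 1.69, rank 1642), and sparse sgSETD8 held none. ZNF555 had an intronic region, centred on the long terminal repeat (LTR) element MER68-int, in both dense tables. Its density was 1.47 in sgSETD8 (chr19:2845898-2846543) and 1.07 in sgNT (chr19:2845891-2846580), with ranks 9597 and 9569. The ZNF66 region at the gene start had densities of 0.983 in dense sgSETD8 (chr19:20776189-20776855) and 0.951 in dense sgNT (chr19:20776298-20776855), and 1.16 in sparse sgNT. These 4 loci were thus listed in both groups of the dense pair.

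The loci found in all 4 tables were a retroviral repeat and a CpG island. At ZNF321P, a transcribed pseudogene whose sequence is also part of the ZNF816-ZNF321P readthrough gene, every table had a region centred on LTR5B, an LTR of the HERV-K family of endogenous retroviruses. The densities were 1.06 in dense sgSETD8 (chr19:52936045-52937735) and 1.78 in dense sgNT (chr19:52936040-52937004). In the sparse pair they were 1.94 in sgSETD8 (chr19:52936226-52937243, rank 537) and 3.69 in sgNT (chr19:52936185-52937140, rank 865). Density was lower in sgSETD8 in both pairs, as was the median density of all regions of the tables, 0.589 in dense sgSETD8 and 0.756 in dense sgNT, and 0.810 in sparse sgSETD8 and 1.49 in sparse sgNT. The dense sgSETD8 region of ZNF321P was also wider, 1691 bp against 965 bp in sgNT. At ZNF77 the regions lay upstream of the gene, with midpoints at -5126 to -5663 bp from its TSS and on a CpG island in 3 tables. Their densities were 0.372 in dense sgSETD8 and 0.597 in dense sgNT, and 0.850 in sparse sgSETD8 and 2.88 in sparse sgNT. In the dense pair both ZNF77 regions ranked near the bottom, at percentile 90.7 in sgSETD8 and 97.8 in sgNT.

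The remaining recurrent loci were a satellite, a second CpG island and a LINE element. ZNF254, once cloned as a bone marrow zinc finger gene, had an intronic region centred on a BSR/Beta satellite in dense sgSETD8 (chr19:24054443-24054919, density 0.836), in sparse sgSETD8 (chr19:24054074-24055003, density 2.29, rank 501) and in sparse sgNT (chr19:24054377-24054781, density 2.09, rank 2529). The nearest dense sgNT region was 3022907 bp away. In sparse sgSETD8 it was the best-ranked ZNF region. At the pseudogene ZNF833P a CpG island 20565 to 20916 bp from the TSS was listed in dense sgSETD8, dense sgNT and sparse sgNT, with densities of 0.620, 0.743 and 1.47. Near ZNF543 a region on the LINE element L1M2a appeared in both sparse tables only, with densities of 0.777 in sgSETD8 and 1.23 in sgNT. Satellites, repeats and duplicated ZNF genes have near-identical copies elsewhere in the genome, and how reads that fit several places were treated is not given in the sources used here, so the placing of signal at these loci is uncertain.

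Regions of one group were then set against the other group of the same pair, a counterpart being any region that overlaps by at least 1 bp. In the dense pair 9 of 16 sgSETD8 ZNF regions had no sgNT counterpart (56.25%, interval 29.9 to 80.2), where all sgSETD8 regions gave 34.0%. In the same pair 2 of 9 sgNT regions had no sgSETD8 counterpart (22.2%, 2.81 to 60.0), where all sgNT regions gave 22.7%. Both background shares lie inside the intervals. In the sparse pair 23 of 27 sgSETD8 ZNF regions (85.2%, 66.3 to 95.8) had no counterpart, where all regions gave 85.1%, and 5 of 9 sgNT regions (55.6%, 21.2 to 86.3), where all regions gave 79.1%. At these numbers of regions the shares of the ZNF regions could not be told from those of their tables.

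**Figure D5:**
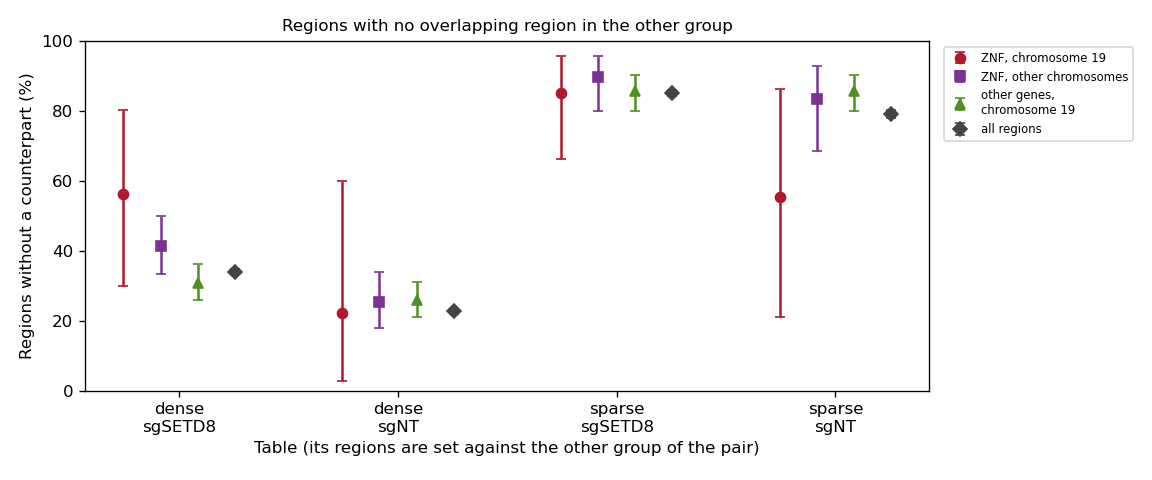
Share of the regions of each table (x axis) that overlap no region of the other group of its pair (percent, y axis), for 4 sets of regions; bars are exact Clopper-Pearson 95% intervals. The chromosome 19 ZNF regions stand at 56.25%, 22.2%, 85.2% and 55.6%, and each of their intervals holds the share of all regions of that table.

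In dense sgSETD8 the 9 regions that lacked a counterpart were those of ZNF708, ZNF611, ZNF675, ZNF254, ZNF507 (2 regions), ZNF714, ZNF837 and ZNF552. The best-ranked was that of ZNF708, a KRAB zinc finger gene of the pericentromeric cluster, an intronic region of 7895 bp at chr19:21314983-21322877 with 2 joined peaks and rank 7342. Its density of 0.234 per bp was the lowest of the 16 dense sgSETD8 ZNF regions. ZNF611 followed with an intronic region at chr19:52715906-52716689 (density 0.982, rank 10379), and then ZNF675 with one at chr19:23681248-23682177, centred on the LTR element MER21C (density 0.634, rank 11398). ZNF675 encodes a protein known to inhibit TRAF6 signalling. The nearest dense sgNT regions were 283447, 219350 and 2649712 bp away. The other ranks ran down to 17567 of 18061, at ZNF552, and 5 of the 9 regions were under 500 bp wide, so most were short and low-ranked.

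ZNF507, a zinc finger gene apart from the large clusters, had 4 regions over the dense pair and sparse sgSETD8, and none overlapped another. Dense sgSETD8 placed them at chr19:32348828-32349268 and chr19:32367953-32368462 and dense sgNT at chr19:32363048-32363369, 4583 bp from the nearer one. Sparse sgSETD8 placed one 107170 bp upstream of the TSS, where 2 peaks were joined over 11109 bp at a density of 0.142. The gene was thus named in both groups although no position was shared. The only other dense sgNT region without a counterpart lay in an intron of ZNF564 (chr19:12543990-12544552, density 0.495, rank 13880).

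The 23 sparse sgSETD8 regions without a counterpart overlapped no region of any other table, and 18 of them were under 500 bp wide. The best-ranked after that of ZNF507 (rank 684) was in an intron of ZNF331, an imprinted KRAB gene, on an AC repeat (chr19:53559321-53560017, density 1.48, rank 975). ZNF556 (rank 1946), ZNF224, a repressor that binds the aldolase A gene (rank 2283), ZNF784 (rank 2371) and ZNF266 (rank 2504) followed. The region assigned to ZNF93, a KRAB gene, was centred on the LINE-1 element L1PA10, 65256 bp from the TSS (chr19:19966050-19966354, rank 4516). It was 305 bp wide, and binding of the ZNF93 protein there was not measured. The 5 sparse sgNT regions without a counterpart lay at ZNF430, ZNF833P, ZNF439, ZNF57 and ZNF66, and those of ZNF430, ZNF833P and ZNF66 overlapped both dense tables. Sparse sgNT thus shared 6 of its 9 ZNF regions with a dense table (66.7%, interval 29.9 to 92.5), where all its regions gave 79.0%. Sparse sgSETD8 shared 3 of its 27 (11.1%, 2.35 to 29.2), where all its regions gave 29.3%.

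Counted by gene instead of by position, the dense pair named 16 ZNF genes: 8 in both groups, 7 in sgSETD8 only and 1 (ZNF564) in sgNT only. Over all genes with a region in either dense table, 20.5% were found in sgSETD8 only and 11.4% in sgNT only. In the sparse pair 30 ZNF genes were named, 4 in both groups, 21 in sgSETD8 only and 5 in sgNT only, where all genes gave 45.9% and 28.8%. No ZNF gene was found in both sgSETD8 tables and absent from both sgNT tables (2.85% of all genes were), and none the reverse (0.858%). ZNF77 and ZNF321P were the only 2 of the 38 genes found in all 4 tables, against 12.1% of all genes. ZNF254, named in both sgSETD8 tables, was named in sparse sgNT as well.

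Signal density could be set side by side where a dense sgSETD8 and a dense sgNT region covered each other by at least 90%, which left 1769 matched regions of the genome and 2 of the ZNF regions. The median log2 ratio over the 1769 was -0.26, and differences are given relative to it. ZNF555 stood at 0.71, the 99.5 percentile of matched regions, and ZNF787 at 0.11. A difference past 0.32 on this log2 scale was found upward in 8.71% of the matched regions and downward in 7.97%, against 1 and 0 of the 2 ZNF regions, so ZNF555 was the one past it. With a cover of 50% in place of 90%, 5 ZNF regions could be matched, and ZNF66 stood at 0.32, ZNF430 at 0.23 and ZNF321P at -0.48 (percentile 5.81). Each value compares 1 table per group, has no replicate check, and is on the authors' scale.

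LTR elements lay under a part of the ZNF regions. The midpoint lay on an LTR in 6 of 16 dense sgSETD8 regions (37.5%, interval 15.2 to 64.6). In dense sgNT it did so in 2 of 9 regions (22.2%, 2.81 to 60.0). All regions of those tables gave 7.34% and 6.98%. The sparse pair had 6 of 27 in sgSETD8 (22.2%, 8.62 to 42.3) and 1 of 9 in sgNT (11.1%, 0.281 to 48.2). All regions of that pair gave 12.5% and 8.45%. Only the dense sgSETD8 interval did not hold the share of all regions of its table. It counts regions of 1 table as if independent, while 2 of the 6 lay at ZNF507, so it is no measure of spread between samples. Regions of other chromosome 19 genes gave 5.23%, 3.02%, 3.05% and 2.56% in the same order of tables. Regions at ZNF genes on other chromosomes gave 11.7%, 8.20%, 16.2% and 2.38% in that order. The 44 loci were 10 on LTRs, 7 on LINEs, 3 on CpG islands and 19 on no repeat, by the widest region of each. The LTR loci named above were those of ZNF555, ZNF675, ZNF321P and 3 of the 4 at ZNF507, and ZNF266, ZNF221, ZNF780A and ZNF702P held the others. Whether these shares differ from those of their neighbourhood was not tested.

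Median widths were 634 bp in dense sgSETD8 and 563 bp in dense sgNT, where all regions of those tables had 1499 and 1515 bp, and 319 bp in sparse sgSETD8 and 711 bp in sparse sgNT, where all had 341 and 512 bp. Their midpoints lay 178 bp (ZNF66) to 107170 bp (ZNF507) from the TSS, with a median of 9202 bp. By table the median distance was 8536 bp in dense sgSETD8 and 6072 bp in dense sgNT, where all regions had 21784 and 18751 bp, and 11802 bp in sparse sgSETD8 and 7883 bp in sparse sgNT, where all had 34112 and 23620 bp. The ZNF regions thus lay nearer to a TSS than the regions of their tables by this median. Regions of other chromosome 19 genes had median distances of 7173, 7314.5, 11314 and 10283 bp in the same order of tables. A short distance was thus not particular to the ZNF regions. By median width the ZNF regions were shorter than all regions in every table but sparse sgNT. None was annotated to a promoter, and 13 of 16 dense sgSETD8 and 7 of 9 dense sgNT regions were intronic. Rank percentiles, where 100 is the weakest signal, had medians of 68.3 in dense sgSETD8 and 71.8 in dense sgNT, and 62.1 in sparse sgSETD8 and 39.2 in sparse sgNT.

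Most ZNF genes of the chromosome had no region in any table. This does not show that they lacked the mark, since few promoter regions are listed and depth is unknown. RefSeq lists 304 of them, 250 protein-coding, and the 38 named here are 12.5%, with 34 protein-coding genes, 3 pseudogenes (ZNF321P, ZNF702P and ZNF833P) and the antisense RNA ZNF433-AS1. Of the protein-coding ZNF genes 34 of 250 had a region (13.6%, interval 9.61 to 18.5), against 418 of 1201 other coding genes of the chromosome (34.8%), 113 of 268 coding ZNF genes elsewhere (42.2%) and 9626 of 20056 in the genome (48.0%). By table the share was 5.20% in dense sgSETD8 and 2.80% in dense sgNT, and 8.80% in sparse sgSETD8 and 2.80% in sparse sgNT. Other coding genes of the chromosome gave 20.9%, 19.2%, 13.0% and 13.0% in the same order of tables, and all coding genes 36.2%, 33.0%, 18.0% and 14.9%.

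The 304 genes fall into 17 runs when a gap of over 1 Mb starts a new one, and 10 runs held a region. The run at chr19:19668153-24129968, on the short arm beside the centromere, has 45 ZNF genes, 9 of them named (ZNF506, ZNF93, ZNF66, ZNF430, ZNF714, ZNF708, ZNF98, ZNF675 and ZNF254). It held 6 ZNF regions in dense sgSETD8 and 2 in dense sgNT, and 4 in sparse sgSETD8 and 3 in sparse sgNT, while regions of other genes there numbered 1 over the 4 tables. The small run at chr19:2819868-2944971 had ZNF555, ZNF556, ZNF57 and ZNF77 named of 5 genes, with 2 regions in each of the 4 tables. The telomeric run at chr19:55476617-58489533 had 7 of 71 genes named, with 3 regions in dense sgSETD8 and 1 in dense sgNT, and 4 in sparse sgSETD8 and 1 in sparse sgNT. The run with 33 genes at chr19:36182060-37779586 held 3 regions, at ZNF527 and ZNF607, all in sparse sgSETD8.

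A list of 20 genes held proteins that KRAB zinc finger proteins recruit or that silence the same loci, and also CTCF and ZBTB7A. Of the 20, 11 had a region in dense sgSETD8 and 12 in dense sgNT, and 3 in sparse sgSETD8 and 3 in sparse sgNT, beside the shares of all coding genes given above. CTCF and ZBTB7A are in these counts. CTCF had 1 region in each dense table, and ZBTB7A had 2 in dense sgSETD8 and 1 in each other table. In the dense pair 5 genes had more regions in sgSETD8 and 3 had fewer, where 14.7% of all coding genes had more and 8.54% fewer. In the sparse pair 1 gene had more and 1 had fewer, where all coding genes gave 12.5% and 9.41%. In the dense pair TASOR, a subunit of the HUSH silencing complex, had 4 regions in sgSETD8 and 1 in sgNT. CBX5, the HP1 alpha protein, had 3 and 1 there. The 3 genes with fewer in dense sgSETD8 were CBX1 and CBX3, with 0 against 1 each, and MPHOSPH8, with 1 against 2. ATRX, a chromatin remodeller, had 5 in dense sgSETD8 and 4 in dense sgNT, but 1 and 2 in the sparse pair. ATF7IP, the partner of SETDB1, had 3 in each dense table, and 4 in sparse sgSETD8 and 3 in sparse sgNT. TRIM28 and SETDB1 themselves had no region in any table. Whether their starts carried the mark cannot be read from lists with few promoter regions.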

How the data were processed

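H3K27ac CUT&Tag libraries of 4 Kasumi-1 samples were processed with cutadapt and Bowtie2 on hg38, per the submitters' processing notes. Tool versions and the peak calling, stitching and annotation steps are not stated in those notes. The deposited values are a signal, computed by the authors as a density per bp times region width; its scaling is not stated and depth is unknown. Tables were grouped by the guide named in their region identifiers; those of sparse sgNT name only the cell line. Which sample of a group a table holds was not resolved. The pairs rest on naming alone.

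Regions were counted, overlapped (at least 1 bp) and ranked by signal within a table in Python 3.11.15 (pandas 2.3.3, numpy 2.4.6, scipy 1.17.1, plots with matplotlib 3.10.9). Density matching was run on a simulated copy of dense sgNT with the same region boundaries and no noise. That simulation did not try regions with unlike boundaries. Rank percentile 100 is the weakest. Start windows and gene types came from RefSeq (GRCh38.p14), where all 38 symbols matched. The members and lists were chosen with earlier results of these data known. Named genes were the 10 best-ranked ZNF regions of each dense and 5 of each sparse table, genes in all 4 tables, matched regions, the 5 best-ranked dense regions of each group without a counterpart, and genes with most dense regions; others were named after their values were seen. Alternatives were rank, width, distance, promoter, merging and overlap settings, and leaving out a pair. Zinc finger and KRAB content was not analysed here.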

Additional observations from a re-analysis of the deposited data

How the results depend on the processing

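Of 53 alternative settings, 43 stayed within the limit set for a change (1 SD over the pairs, over the 2 matched regions for density, or 1.5 times for the number of runs), 7 moved past it and 3 reversed. Leaving out a pair cannot move a mean over 2 pairs past 1 SD, so those settings stayed within the limit by construction. No ZNF region was annotated to a promoter, so dropping promoter regions could not change the ZNF regions, genes or covered length. The count of 43 is thus no measure of stability. That limit is wide: within it the difference in chromosome 19 share fell to 1.44 points in the better-ranked part of each table, the log2 ratio of covered length to 0.70 with a TSS within 50000 bp, and the density difference of 0.41 to 0.15 uncentred and 0.12 among the best-ranked 5000. The 3 reversals came with only regions that overlap a region of the other pair, chosen after seeing the data. The mean log2 ratio, sgSETD8 over sgNT, was then -0.37 for regions, -0.37 for genes and -0.32 for covered length. With all regions it was 1.21, 1.11 and 1.26. By pair, the reversed means came from 0.26, 0.26 and 0.44 in the dense pair and -1.0, -1.0 and -1.08 in the sparse pair. The same setting left 0.161 percentage points of the difference in chromosome 19 share and 8.33% of sgSETD8 regions without a counterpart, a mean over the pairs, against 4.70 points and 70.7%. By pair these were 0.323 points (dense) and 0 points (sparse), and 1 of 6 dense and 0 of 3 sparse regions. With the best-ranked 5000 regions the log2 ratio was 0.46 for regions and 0.46 for genes, and the share of sgSETD8 regions without a counterpart averaged 38.2% over the pairs, from 0 of 1 dense region and 13 of 17 sparse regions (76.5%). The log2 ratio in that setting was 0 in the dense pair and 0.92 in the sparse pair, for regions and genes alike. Without regions under 500 bp the mean log2 ratio was 0.44 for regions and 0.44 for genes. It came from 0.87 in the dense pair and 0 in the sparse pair. The cause was not tested. Relative to all regions of the tables the ratio was 0.84.

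Leaving out either pair gave 0.83 to 1.58 for regions, 0.74 to 1.47 for genes, 0.79 to 1.73 for covered length, 1.76 to 7.64 points for the share, and 56.25% to 85.2% of sgSETD8 and 22.2% to 55.6% of sgNT regions without a counterpart. No paired test was made, and no result comes from a fitted test. The labels carry no replicate numbers that tie samples of both groups. Sample titles come in a form with and a form without the word CUT&Tag, each for both groups, but the tables were not tied to them. The pairs of tables used throughout, and the ratios by pair, rest on identifier names alone. Depth is unknown and few promoter regions are listed, so a locus missing from a table cannot be read as unacetylated.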

Other observations

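The gene named by the annotation was not always the gene under the region. The sparse sgSETD8 region assigned to ZNF224 lay in an intron of ZNF284, a neighbouring zinc finger gene, and 1 of the 2 assigned to ZNF527 lay in an exon of ZNF875. The region assigned to ZNF506 lay in the pseudogene ZNF56P, at -9737 bp from the ZNF506 TSS. ZNF98 was named for a region 67636 bp from its TSS.

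ZNF702P, a pseudogene near ZNF321P, carried a sparse sgSETD8 region centred on HERVK3-int (chr19:52986318-52986682, rank 3359), 49177 bp from the nearest sparse sgNT region. ZNF564 was named in dense sgNT and in sparse sgSETD8 at positions that did not overlap. These values were picked after the tables were seen, and nothing was tested on them.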
